A study of Arabidopsis thaliana with 18 samples.

Results

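The 6 genes described here encode ion channels of the guard cell and regulators of the stomatal pore in Arabidopsis thaliana: the potassium channels KAT1 (AT5G46240), KAT2 (AT4G18290) and GORK (AT5G37500), the anion channel SLAC1 (AT1G12480, which the gene table lists under the symbol OZS1), the protein kinase OST1 (AT4G33950) and the transcription factor MYB60 (AT1G08810). They are 6 of the 22591 loci named for the 22810 probe sets of the array, 1 probe set each, matched by locus. They were chosen on their measured signals in arrays labelled OE against Col-0 and across the Col-0 treatments, so their values in those contrasts are given as a description, without a test. The wound contrasts within the arrays labelled OE were not used in the choice and were tested.

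A pair of guard cells opens the stomatal pore by taking up potassium and anions, which draws in water, and closes it by letting them out. Abscisic acid, the drought hormone, binds receptors of the PYR/PYL family, which then inhibit type 2C protein phosphatases. Freed of these phosphatases, the kinase OST1 activates the anion channel SLAC1, and the depolarised membrane opens the outward potassium channel GORK.

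Leaf RNA was measured on 18 Affymetrix ATH1 arrays, 3 (lettered A, B and C) in each of 6 labelled groups. The OE groups combine plants of OEEV47-1 and OEEV47-2, pooled lines that over-express StZFP2, a zinc finger gene of potato, and were labelled control, 1 h after wounding and 6 h after wounding. The Col-0 groups are the wild type with the same 3 treatments. The labels give no promoter for the transgene, no plant age and no way of wounding, and name no unwounded group at 6 h, so a wound and a later hour of the day cannot be told apart in the 6 h contrasts. Whether replicates are separate plants is not stated, so the p-values reflect the scatter among these arrays, part of which may be technical.

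Whole leaves were sampled, so fewer guard cells and less RNA per guard cell cannot be told apart in any value below. The mesophyll markers RBCS1A and CA1 were bright on all 18 arrays, with signals of 32720 to 48200 and of 17080 to 27680, the floral genes AP3 and PI lay below the 40th percentile of every array, and the floral gene AG did on 15 of 18 arrays, with a highest signal of 115. Median signals ranged from 139.4 to 161.1 on arrays labelled OE and from 127.5 to 153.6 on Col-0 arrays. All 9 Col-0 arrays correlated best with an array of their own group, but 3 of the 9 arrays labelled OE did. The arrays labelled OE control A, OE control B and OE 6 h wound C correlated at 0.961 to 0.971 with the Col-0 6 h arrays and at 0.876 to 0.892 with the unwounded Col-0 arrays, over 14823 probe sets. OE control C and OE 1 h wound A were closest to each other (r = 0.9738), and OE 1 h wound B was closest to OE control C (r = 0.9733). OE 1 h wound C and OE 6 h wound B were also closest to each other (r = 0.9778), so each labelled OE group held arrays closest to another label. Groups were kept as labelled, and "labelled OE" stands for the label alone. A signal is called dim here when it lies below the 40th percentile of its array, which was 71.4 to 86.5 on arrays labelled OE and 67.3 to 83.4 on Col-0 arrays.

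KAT1 and KAT2 are inward channels through which potassium enters the guard cell as the pore opens. KAT1 had signals of 853, 763 and 567 on arrays labelled OE control, 490.0, 657 and 376 on those labelled OE 1 h wound, and 412, 366 and 881 on those labelled OE 6 h wound. Col-0 arrays had 231, 403 and 318 in unwounded leaves, 219.6, 184 and 242 at 1 h, and 726, 722 and 775 at 6 h. The Col-0 6 h arrays lay close together and above all 6 other Col-0 arrays, while the highest signals among arrays labelled OE were those of control A, control B and 6 h wound C, the same arrays whose whole profile lay near the Col-0 6 h arrays. Averaged over the 3 labels, KAT1 was 0.63 ± 0.17 higher on the log2 scale in arrays labelled OE than in Col-0 (SE, 9 arrays each), or 1.55-fold. By label that difference was 1.21 ± 0.30 in the controls, 1.21 ± 0.30 at 1 h and -0.54 ± 0.30 at 6 h, so it did not have 1 direction. Within Col-0, KAT1 at 6 h was 1.26 ± 0.30 above unwounded leaves on the log2 scale (2.39-fold), and at 1 h it was 0.53 ± 0.30 below them. The 6 h value stayed between 1.05 and 1.45 when any 1 array was left out. By mean signal the groups ran from Col-0 at 1 h (215 ± 29.4, SD, n = 3) and unwounded Col-0 (317 ± 86.0) through OE 1 h (508 ± 141), OE 6 h (553 ± 285) and OE control (728 ± 146) to Col-0 at 6 h (741 ± 29.2). The OE groups overlapped one another, and OE control differed from Col-0 at 6 h by less than its own spread.

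**Figure D1:**
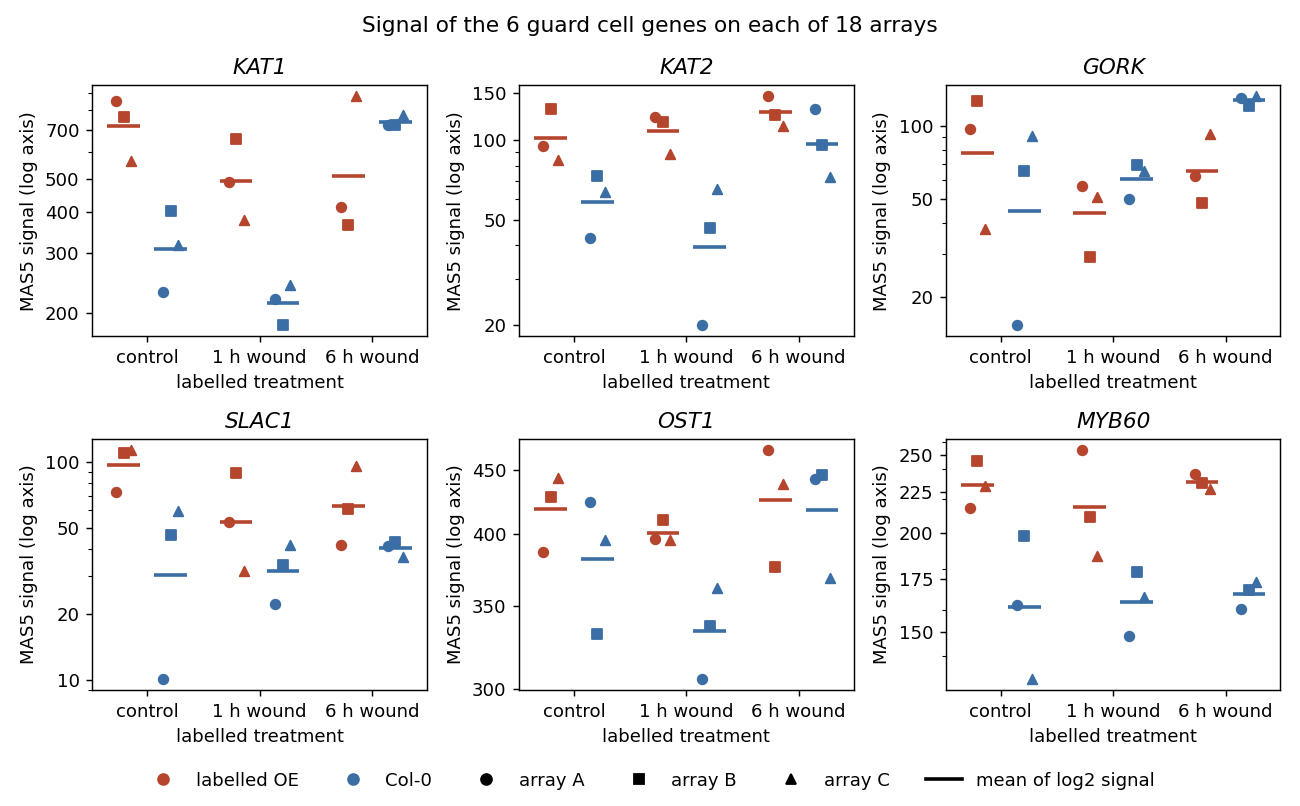
MAS5 signal (log axis) of the 6 genes on each of 18 arrays, by labelled treatment, with arrays labelled OE in red left of Col-0 in blue, a marker shape for each array letter and a line at the mean of the log2 signals. KAT1 and GORK are tight and high in Col-0 at 6 h, MYB60 is higher on every array labelled OE than on the Col-0 arrays of the same label, and SLAC1 reaches 10.1 on 1 unwounded Col-0 array.

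KAT2, the close relative of KAT1, was measured near the lower end of the range. It had 94.9, 131 and 83.8 on arrays labelled OE control, 122, 117 and 88.8 on those labelled OE 1 h wound, and 146, 124 and 113 on those labelled OE 6 h wound. In Col-0 it had 42.6, 73.1 and 63.6 in unwounded leaves, 20.1, 46.6 and 65.5 at 1 h, and 131, 95.8 and 72.1 at 6 h. Its signal was dim on 1 of 9 arrays labelled OE and on 7 of 9 Col-0 arrays, so the size of the difference between them is poorly resolved. Over the 3 labels KAT2 was 0.88 ± 0.22 higher on the log2 scale in arrays labelled OE (1.84-fold), with 0.80 ± 0.37 in the controls and 1.46 ± 0.37 at 1 h, where all Col-0 signals were dim, and 0.39 ± 0.37 at 6 h. Within Col-0 the change was 0.73 ± 0.37 at 6 h and -0.57 ± 0.37 at 1 h. The 1 h value was -0.08 without the Col-0 1 h array A, where the signal was lowest. The means of the 3 OE groups, 103 ± 24.7 in the controls, 109 ± 17.9 at 1 h and 128 ± 16.9 at 6 h, differed by no more than about the spread within a group, and Col-0 at 6 h (99.7 ± 29.7) lay within that spread of OE control and OE 1 h. Unwounded Col-0 (59.8 ± 15.6) and Col-0 at 1 h (44.0 ± 22.8) were the lowest groups and differed by less than their spread.

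GORK is the outward channel that releases potassium during closure. It had 97.0, 127 and 37.7 on arrays labelled OE control, 56.6, 29.1 and 51.1 on those labelled OE 1 h wound, and 62.1, 48.2 and 92.3 on those labelled OE 6 h wound. The Col-0 signals were 15.3, 65.6 and 90.6 in unwounded leaves, 50.1, 68.9 and 65.3 at 1 h, and 129.6, 121 and 132 at 6 h. The 3 Col-0 arrays at 6 h stood above all other Col-0 arrays and above the arrays labelled OE 6 h wound. The signal was dim on 6 of 9 arrays labelled OE and on 5 of 9 Col-0 arrays. Over the 3 labels the difference between arrays labelled OE and Col-0 was -0.22 ± 0.32, made of 0.78 ± 0.56 in the controls, -0.47 ± 0.56 at 1 h and -0.97 ± 0.56 at 6 h. Within Col-0, GORK at 6 h was 1.50 ± 0.56 above unwounded leaves on the log2 scale (2.83-fold). That value was 0.73 without the unwounded array A, whose signal of 15.3 is far below the other 8 Col-0 arrays, and 2.01 without the unwounded array C. At 1 h the change was 0.44 ± 0.56, and -0.34 without the unwounded array A.

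SLAC1 is the anion channel whose opening starts closure. It had 73.0, 109.8 and 114 on arrays labelled OE control, 53.3, 89.2 and 31.8 on those labelled OE 1 h wound, and 41.7, 61.1 and 96.1 on those labelled OE 6 h wound. In Col-0 it had 10.1, 46.4 and 59.6 in unwounded leaves, 22.3, 33.6 and 41.6 at 1 h, and 41.3, 43.1 and 36.6 at 6 h. All 9 Col-0 signals were dim, as were 5 of the 9 of arrays labelled OE, and the groups were apart only in the controls. Over the 3 labels SLAC1 was 1.02 ± 0.33 higher on the log2 scale in arrays labelled OE, and no fold is given because all Col-0 signals were dim. By label the difference was 1.67 ± 0.57 in the controls, 0.76 ± 0.57 at 1 h and 0.64 ± 0.57 at 6 h. Within Col-0 the 6 h change was 0.41 ± 0.57 and had the opposite sign, -0.39, without the unwounded array A.

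OST1, the kinase that passes the abscisic acid signal to SLAC1, was bright on every array. It had 387, 428 and 443 on arrays labelled OE control, 396, 411 and 395 on those labelled OE 1 h wound, and 467, 376 and 439 on those labelled OE 6 h wound. Col-0 leaves gave 424, 333 and 396 in unwounded leaves, 306, 337 and 362 at 1 h, and 443, 446 and 369 at 6 h. Every group lay inside 306 to 467, and the groups of the 2 genotypes were apart only at 1 h. OST1 was 0.14 ± 0.08 higher on the log2 scale in arrays labelled OE. Within Col-0 its change was 0.13 ± 0.13 at 6 h and -0.19 ± 0.13 at 1 h.

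MYB60 is a transcription factor of guard cells tied to stomatal opening in light. It had 215, 246 and 229 on arrays labelled OE control, 254, 209 and 187 on those labelled OE 1 h wound, and 237, 230.4 and 227 on those labelled OE 6 h wound. In Col-0 it had 162, 198 and 131 in unwounded leaves, 148, 178 and 166 at 1 h, and 160.5, 169 and 173 at 6 h. Under each of the 3 labels the lowest array labelled OE lay above the highest Col-0 array. MYB60 was 0.45 ± 0.09 higher on the log2 scale in arrays labelled OE (1.37-fold), with 0.51 ± 0.16 in the controls, 0.39 ± 0.16 at 1 h and 0.47 ± 0.16 at 6 h. Within Col-0 its changes of 0.02 ± 0.16 at 1 h and 0.05 ± 0.16 at 6 h were smaller than their errors. The Col-0 means of 164 ± 33.4 in unwounded leaves, 164 ± 15.1 at 1 h and 168 ± 6.64 at 6 h could not be ordered.

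**Figure D2:**
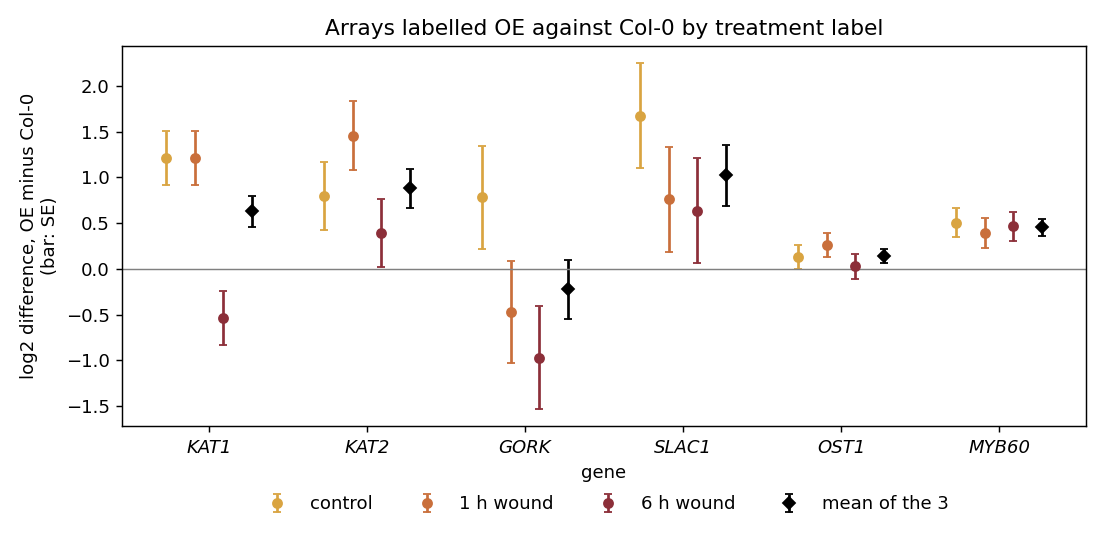
Log2 difference, arrays labelled OE minus Col-0, for each gene within each treatment label and as the mean of the 3 (points, with SE bars from the limma fit). MYB60 sits at 0.39 to 0.51 under every label, while KAT1 and GORK have opposite signs in the controls and at 6 h.

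Arrays labelled OE and Col-0 did not overlap for KAT1, KAT2, SLAC1 and MYB60 in the controls, all higher in OE, where 32% of the 14823 probe sets tested did not overlap. At 1 h the same held for KAT1, KAT2, OST1 and MYB60 (36.1% of probe sets), and at 6 h for MYB60, higher in OE, and GORK, lower in OE (23% of probe sets). MYB60 alone of the 6 was apart in 1 direction under all 3 labels, which 90 of 14823 probe sets were, or 0.607%. In the limma fit 717 of 14823 probe sets, or 4.84%, passed an adjusted p of 0.05 between arrays labelled OE and Col-0, 446 higher and 271 lower. Since the genes were chosen on this contrast, no p is given for them and nothing is read from these shares.

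Of 8 other guard cell markers on the array 6 were tested between the genotypes, and 1 was higher and 1 lower in arrays labelled OE. MPK12, a guard cell mitogen-activated protein kinase, was 236 in arrays labelled OE and 182 in Col-0 (limma adjusted p = 0.0499), FAMA, which completes guard cell identity, 313 in arrays labelled OE and 228 in Col-0 (adjusted p = 0.0754), and the anion channel ALMT12 203 in arrays labelled OE and 145 in Col-0 (adjusted p = 0.119). CYP86A2, a cutin enzyme of guard and other epidermal cells, was lower in arrays labelled OE (3415, against 5120 in Col-0; limma adjusted p = 0.0103). The marker AT1G22690 was 1761 in arrays labelled OE and 1865 in Col-0 (limma adjusted p = 0.82). SCAP1, dim on all 18 arrays, and HT1, dim on 16, were not tested. The summed signal of the 8 markers was 17810 to 22790 in arrays labelled OE and 17840 to 22900 in Col-0, most of it from the myrosinase TGG2 (14080 in arrays labelled OE and 12770 in Col-0; limma adjusted p = 0.267), whose probe set is shared between genes. Of 5 epidermal markers 1 passed, the wax enzyme CER6, which was lower in arrays labelled OE (3091, against 4128 in Col-0; limma adjusted p = 0.00965). The log2 difference was -0.43 for FDH, -0.02 for ATML1, 0.08 for PDF2 and 0.64 for PDF1 (limma adjusted p = 0.114, 0.941, 0.665 and 0.611). The sum of the 5, to which CER6 gave the most, was 4176 to 6336 in arrays labelled OE and 5008 to 8316 in Col-0. Actin probes at the 3′ and 5′ ends of the transcript, whose ratio tracks RNA integrity and labelling, gave ratios of 5.42 ± 0.751 in arrays labelled OE and 7.53 ± 2.17 in Col-0 (SD, n = 9 each). The part of these markers and of the actin ratio in the differences of the 6 genes was not tested.

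The 6 genes were tested after wounding in arrays labelled OE against the arrays labelled OE control. None of the 6 passed an adjusted p of 0.05 in limma at 1 h or at 6 h, and none had groups that did not overlap, which 16.2% and 12% of the 14823 probe sets did at 1 h and 6 h. At 1 h the fit called 0 of 14823 probe sets (0%; 2331 had an unadjusted p below 0.05), and at 6 h it called 2 (0.0135%; 2081 below 0.05). The KAT1 difference was -0.54 ± 0.30 at 1 h (limma adjusted p = 0.379) and -0.49 ± 0.30 at 6 h (limma adjusted p = 0.441), with 95% intervals of -1.16 to 0.09 and -1.12 to 0.14 on the log2 scale. The 6 h value for KAT1 varied with the arrays kept. OE 6 h wound C was at 881 beside 412 and 366, and the controls A and B were at 853 and 763 beside 567. Without OE 6 h wound C, KAT1 was 0.89 lower than in the controls (limma adjusted p = 0.0263). Without the 3 OE arrays lettered C it was 1.05 lower (limma adjusted p = 0.0024). OE control A, OE control B and OE 6 h wound C are the arrays whose profile lay near the Col-0 6 h arrays. Without OE 6 h wound C, the controls still mix arrays of different profile. Without the 3 arrays lettered C, both controls left are arrays near the Col-0 6 h arrays. They are compared with OE 6 h wound A and B, whose closest arrays were OE 6 h wound B and OE 1 h wound C. Label and profile thus do not match in that fit, and no wound effect is read from either fit. Over the alternatives run, the adjusted p of KAT1 at 6 h ranged from 0.0024 to 0.889. The KAT2 difference was 0.09 ± 0.37 at 1 h and 0.32 ± 0.37 at 6 h (limma adjusted p = 0.918 and 0.688). For GORK it was -0.82 ± 0.56 and -0.25 ± 0.56 at 1 h and 6 h (limma adjusted p = 0.47 and 0.851). For SLAC1 it was -0.86 ± 0.57 and -0.63 ± 0.57 at 1 h and 6 h (limma adjusted p = 0.457 and 0.598). For GORK and SLAC1 the 95% intervals spanned more than 2 log2 units, from -2.01 to 0.37 and from -2.08 to 0.35 at 1 h. OST1 and MYB60 were more narrowly bounded, at -0.26 to 0.31 and -0.33 to 0.35 at 6 h (limma adjusted p = 0.949 and 0.978).

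**Figure D3:**
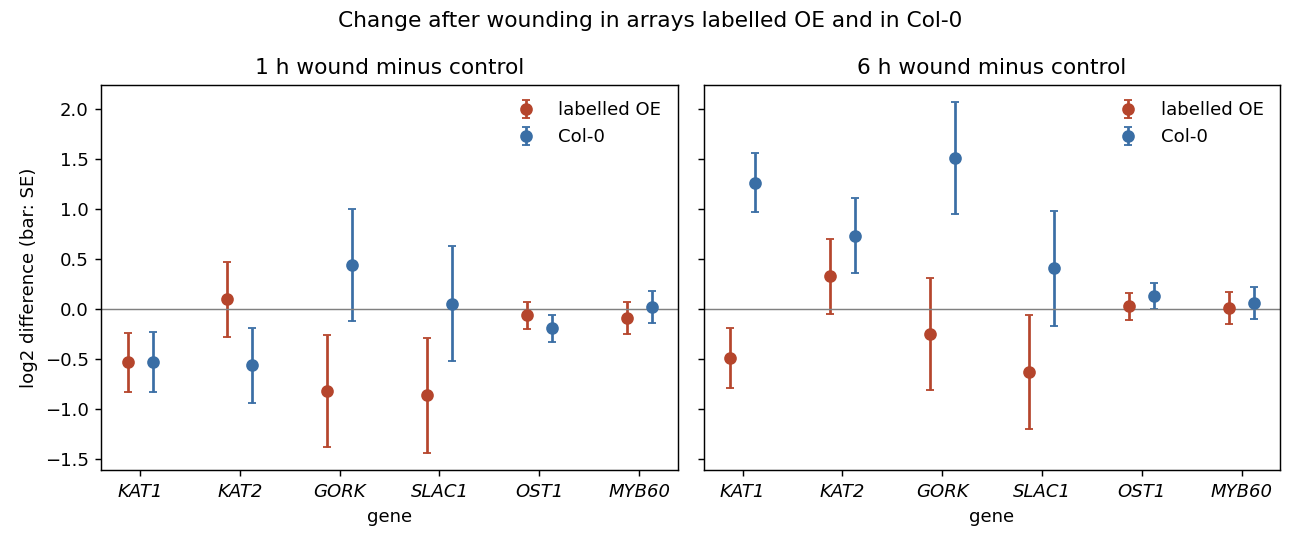
Log2 difference from the control of the same genotype at 1 h (left) and 6 h (right), for arrays labelled OE (red) and Col-0 (blue), with SE bars from the limma fit. At 6 h KAT1 is at -0.49 in arrays labelled OE and at 1.26 in Col-0, and GORK at -0.25 in arrays labelled OE and at 1.50 in Col-0.

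Set side by side, the 6 h values of KAT1 and GORK differed most between the genotypes. The change in arrays labelled OE minus that in Col-0 was -1.75 ± 0.42 for KAT1 and -1.75 ± 0.79 for GORK on the log2 scale, and -1.04 ± 0.81 for SLAC1, -0.41 ± 0.53 for KAT2, -0.10 ± 0.19 for OST1 and -0.04 ± 0.23 for MYB60. These differences contain the Col-0 contrast on which the genes were chosen and were not tested. Among arrays labelled OE, both KAT1 and GORK were highest on control A, control B and 6 h wound C. Those are the arrays whose profile lay near the Col-0 6 h arrays, and the part of this in the differences was not tested. Without the unwounded Col-0 array A the GORK value was -0.97 and the SLAC1 value -0.25, and the KAT1 value was -2.15 when OE 6 h wound C was left out. Within Col-0, KAT1 and GORK did not overlap between 6 h and unwounded leaves (42.6% of 14823 probe sets), none of the 6 did between 1 h and unwounded leaves (24.7%), and KAT1, KAT2, GORK and OST1 did not between 6 h and 1 h (56.1%).

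The wider guard cell pathway was read from 5 lists of 95 genes, of which 93 were on the array and 73 were bright enough to be tested. Between arrays labelled OE and Col-0, 6 of the 73 passed (8.22%, beside 4.84% of all 14823 probe sets), 4 higher and 2 lower, with a median log2 difference of 0.06 beside 0.05 over all probe sets. NF-YA5, a factor that favours stomatal closure in drought, was 107 ± 12.2 in arrays labelled OE and 73.0 ± 28.1 in Col-0 (SD, n = 9 each), a log2 rise of 0.64 ± 0.14 (limma adjusted p = 0.0218), though 6 of the 9 Col-0 signals were dim. The receptor kinase ER, which patterns stomata, was 596 ± 137 in arrays labelled OE and 448 ± 186 in Col-0 (limma adjusted p = 0.0357), MPK12 rose by 0.39 ± 0.11 and the abscisic acid receptor PYL1 by 0.36 ± 0.09 (limma adjusted p = 0.0499 and 0.0323). AHA2, a proton pump of the plasma membrane, was 2271 ± 369 in arrays labelled OE and 3102 ± 367 in Col-0, a fall of 0.46 in log2 units (limma adjusted p = 0.0112). FLP, which ends the divisions of guard mother cells, fell by 0.61, with 7 of 9 signals dim in arrays labelled OE (limma adjusted p = 0.0367). The count was 21 without the 3 OE arrays lettered C, where 2323 of all probe sets passed, 16 without OE 1 h wound C (1440 of all), and 1 without OE 1 h wound B (336 of all).

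At 6 h in Col-0, 22 of the 73 list genes passed, 8 higher and 14 lower (30.1%, beside 15.9% or 2351 of all 14823 probe sets), with a median log2 change of -0.23 beside 0.04 over all. The abscisic acid list held 9 of them among 20 tested genes. SNRK2.2 and SNRK2.3, kinases of the same subfamily as OST1 and best known from seeds and roots, rose, SNRK2.2 to 2297 ± 335 at 6 h against 446 ± 45.8 in unwounded leaves (SD, n = 3 each) and SNRK2.3 to 681 ± 54.6 against 97.7 ± 20.6. Their log2 changes were 2.36 ± 0.68 and 2.82 ± 0.68 (limma adjusted p = 0.0316 and 0.0186), while that of OST1 was 0.13. Of the 7 phosphatases of the list that were tested, which hold these kinases in check, 4 fell: HAI1 to 224 ± 14.4 against 1012 ± 502, HAB1 to 879.5 ± 178.5 against 3530 ± 1425, PP2CA to 1335 ± 273 against 3621 ± 996 and ABI2 to 243 ± 25.0 against 581 ± 207 (limma adjusted p = 0.0486, 0.0155, 0.0123 and 0.0106). The log2 change was -1.01 for ABI1, -0.02 for HAB2 and 0.16 for HAI2 (limma adjusted p = 0.0772, 0.937 and 0.84). When the 9 Col-0 arrays were fitted alone, ABI1 passed as well, and HAB2 and HAI2 did not (limma adjusted p = 0.0134, 0.931 and 0.839). In that fit SNRK2.2 had an SE of 0.17, against 0.68 above. Its limma adjusted p was 1.79e-06, and that of HAI1 was 0.000925. All other adjusted p-values in this paragraph are from the fit of all groups. The abscisic acid exporter ABCG25 fell by 1.42, ABCG22, a transporter whose loss raises water loss from leaves, by 1.36, and the receptor PYL9 by 0.99 in log2 units (adjusted p in limma of 0.0157, 0.017 and 0.0104). Marker genes moved in the same contrast. The sum of the 5 epidermal markers was 5008 to 5851 at 6 h and 7187 to 8316 in unwounded leaves, and 2 of the 5 fell, FDH by 0.96 and CER6 by 0.56 in log2 units (limma adjusted p = 0.0291 and 0.0186). The sum of the 8 guard cell markers was 17840 to 20380 at 6 h and 20650 to 22900 in unwounded leaves, and 2 of the 6 tested fell, CYP86A2 by 1.01 and AT1G22690 by 0.80 (limma adjusted p = 0.0104 and 0.0345). The trichome gene TRY had a log2 change of -1.04 (limma adjusted p = 0.144), and 1 of 4 phloem markers, AHA3, rose by 0.50 (limma adjusted p = 0.0456). The part of these markers in the list counts was not tested.

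Among 20 genes for channels, pumps and carriers 5 passed at 6 h in Col-0. The vacuolar channel gene ALMT9 rose by 1.12 ± 0.27 in log2 units (limma adjusted p = 0.0179). ABCB14, a malate carrier, fell by 1.37, the vacuolar exchanger NHX1 by 1.14, the nitrate carrier NRT1.1 by 0.67 and the proton pump AHA1 by 0.36 (limma adjusted p = 0.0334, 0.00962, 0.0407 and 0.0294). Of 16 signalling genes 4 passed, the blue light receptor PHOT1 at 4220 ± 240 in wounded and 1541 ± 363 in unwounded leaves (limma adjusted p = 0.0104) and MPK9 upwards by 0.63, and the calcium-dependent kinase CPK3 and the oxidase RBOHD downwards by 0.66 and 0.85. Of 9 transcription factors 3 passed. They were the AKS factors, a group of relatives of which AKS1 is known to activate KAT1 transcription. AKS2 rose by 2.00 ± 0.42 and AKS3 by 1.37 ± 0.30 (limma adjusted p = 0.0123 and 0.0142), and AKS1 fell by 0.96 (limma adjusted p = 0.0406). Of 8 stomatal development genes, ER passed, at 687 ± 43.4 at 6 h and 371 ± 32.9 in unwounded leaves (limma adjusted p = 0.0175). When the 9 Col-0 arrays were fitted alone, 35 of the 73 passed at 6 h, 11 higher and 24 lower, where 29% of probe sets passed. Leaving out 1 array gave 7 list genes without the unwounded array C, 8 and 9 without the 6 h arrays B and A, 12 without either the unwounded array B or the 6 h array C, and 29 without OE 6 h wound C.

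At 1 h in Col-0, 0 of the 73 list genes passed in the limma fit of 18 arrays (14 had an unadjusted p below 0.05), where 4 of 14823 probe sets did, or 0.027%. When the 9 Col-0 arrays were fitted alone, 6 passed, 3 higher and 3 lower, where 866 of 14823 probe sets did, or 5.84%. CBL1, a calcium sensor, rose by 2.33 ± 0.23 in log2 units when Col-0 was fitted alone (limma adjusted p = 0.000248), and MYB15 was 1685 ± 111 at 1 h and 526 ± 161 in unwounded leaves (adjusted p = 0.000544). The anion channel gene SLAH3, a relative of SLAC1, rose by 0.84 ± 0.17 in that fit, while NHX2, AKS1 and the blue light receptor PHOT2 fell by 1.22, 0.93 and 0.52 (limma adjusted p = 0.0141, 0.00683, 0.0263 and 0.032).

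In arrays labelled OE none of the 73 list genes passed against the labelled controls at 1 h or 6 h (limma, 10 and 12 with an unadjusted p below 0.05), and without the 3 OE arrays lettered C the counts were 17 and 28, where 2720 and 4777 of all 14823 probe sets passed. The 6 h change differed between the genotypes for 31 of the 73 genes (42.5%, beside 23.3% or 3460 of all probe sets), and the 1 h change for 0 (limma, 9 with an unadjusted p below 0.05, beside 0% of all probe sets). SNRK2.2 had 3466, 3510 and 573 on arrays labelled OE control, 503.5, 606 and 507 on those labelled OE 1 h wound, and 414, 381 and 3139 on those labelled OE 6 h wound. Its Col-0 signals were 419.7, 498.5 and 418.5 in unwounded leaves, 332, 370.4 and 257 at 1 h, and 2432, 2542 and 1915 at 6 h. Its high signals on arrays labelled OE fell on control A, control B and 6 h wound C, the same 3 arrays with the highest KAT1. HAI1 had 171, 201 and 265 on arrays labelled OE control, 215, 159.6 and 1560 on those labelled OE 1 h wound, and 1199, 1147 and 400.3 on those labelled OE 6 h wound. Its Col-0 signals were 443, 1205 and 1388 in unwounded leaves, 915, 1143 and 710.0 at 1 h, and 218, 213 and 239.9 at 6 h. On the 6 arrays with SNRK2.2 at 1915 or more, HAI1 was at 400.3 or less. HAI1 was also low, at 265, 215 and 159.6, on OE control C, OE 1 h wound A and OE 1 h wound B. On those arrays SNRK2.2 was at 573, 503.5 and 606. The change at 6 h in arrays labelled OE minus that in Col-0 was -3.63 ± 0.96 for SNRK2.2 and 3.99 ± 0.93 for HAI1 (limma adjusted p = 0.0175 and 0.0118). The count of 31 was 16, 17, 19 and 20 without the arrays labelled OE 6 h wound B, OE control A and OE 6 h wound A and the unwounded Col-0 array C.

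**Figure D4:**
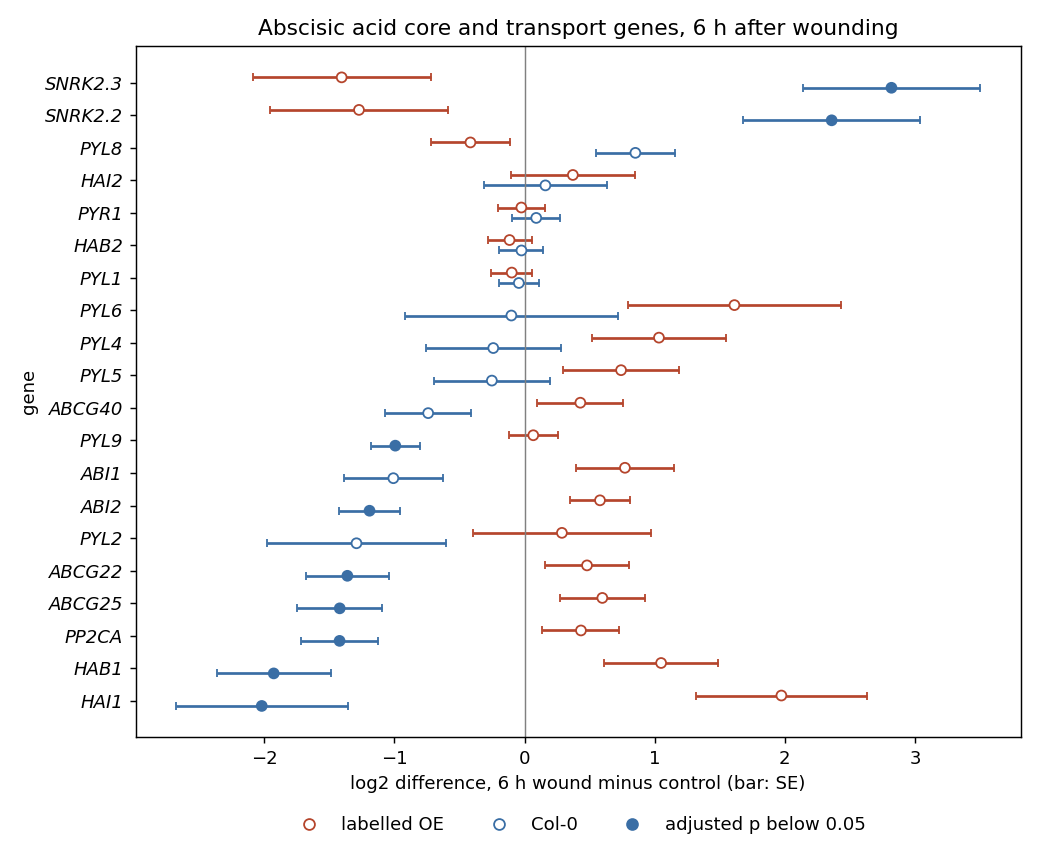
Log2 difference between 6 h and control for 20 genes of abscisic acid perception and transport, in arrays labelled OE (red, upper point) and Col-0 (blue, lower point), with SE bars and filled points where the limma adjusted p is below 0.05. In Col-0 2 genes rose and 7 fell, and no gene passed in arrays labelled OE.

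For each of the 6 genes, the 3 probe sets with the most similar log2 signal over the 18 arrays were found among 14197 probe sets of 1 gene, as a description. The arrays share groups and treatment labels. KAT1 was closest to AT1G70160, AT1G04970 and the transcription factor gene TCP2 (Pearson r = 0.971, 0.968 and 0.967). GORK was closest to the beta-amylase gene BAM5, the cold-induced COR15A and AT5G47330 (r = 0.936, 0.933 and 0.895). SLAC1 was closest to the kinase gene ATN1 (r = 0.914), KAT2 to AT4G15475 (r = 0.888), MYB60 to AT2G39440 (r = 0.835) and OST1 to PBS2 (r = 0.83). None of the 6 was among the nearest genes of another.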

How the data were processed

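The deposited values are MAS5 signal intensity per probe set on a linear scale; the authors set the trimmed mean of each array to 500, with 2% trimmed at either end, per the submitters' processing notes, which give no MAS5 version. Of 22810 probe sets 64 controls were left out, and 14823 that reached the 40th percentile of their array on at least 3 of 18 arrays were kept. Signals were taken to log2 and fitted with limma 3.58.1 in R 4.3.3, 1 mean per labelled group, 12 residual degrees of freedom, moderated variances with a trend, two-sided tests and Benjamini-Hochberg adjustment over 14823 probe sets at 0.05. A second fit used only the 9 Col-0 arrays. Fits were tested on simulated data. A further 90 columns of values, in all, were not used, since their names do not state a sample. Members and gene lists were chosen with earlier results of these data known. Named list genes are mainly those past the threshold. A planned limit of 6 per list and comparison was exceeded for the abscisic acid list at 6 h in Col-0. There the tested phosphatases that did not pass are named too. For the difference between genotypes at 6 h, only SNRK2.2 and HAI1 are named of the 31 list genes that passed. Nearest genes are the 3 with the highest correlation. The replicate letters were not used to pair the arrays. Of 45 same-letter pairs 5 had deviations correlated above 0.1 (-0.605 to 0.238). Pairs of different letters were not compared, so this cannot exclude a pairing. Precision is limited by the number of arrays, and fold changes of dim signals are poorly resolved. Alternatives were the replicate block, quantile normalization, array medians subtracted, log2 after addition of 16, no filter, the 60th percentile, the arrays compared alone and each array left out. Others were the 9 Col-0 arrays alone, the 3 OE arrays lettered C left out and, between genotypes, no term for treatment. No arrays held identical values. Figures were drawn with matplotlib 3.10.9.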

Additional observations from a re-analysis of the deposited data

Results flagged for a closer look

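GORK had a signal of 15.3 on the unwounded Col-0 array A, and the next lowest Col-0 array had 50.1. The gap is 0.55 of the range of the log2 signals of the 9 Col-0 arrays, above Dixon's critical value for 9 samples. Chance gives such a gap in about 1 in 20 groups, and 12 groups of 9 arrays were examined for the 6 genes. The same array had the lowest SLAC1 signal, 10.1. Without it the 6 h change of GORK in Col-0 was 0.73, against 1.50 with it.

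The 6 h change of 31 of 73 genes in the guard cell lists differed between arrays labelled OE and Col-0 in the test of the difference itself. Of these 19 were more positive and 12 more negative in arrays labelled OE. Several arrays labelled OE had as their nearest neighbour an array with a different treatment label, and the part of this in the count was not tested.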

How the results depend on the processing

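For the 6 genes, the difference between arrays labelled OE and Col-0 over the 3 labels kept its sign in every alternative run: KAT1 at 0.50 to 0.71, KAT2 at 0.71 to 1.00, SLAC1 at 0.75 to 1.19, OST1 at 0.06 to 0.17, MYB60 at 0.38 to 0.50 and GORK at -0.48 to -0.05. This is a description, since the genes were chosen on that contrast. No alternative split the labels, and by label KAT1 was at -0.54 at 6 h and GORK at 0.78 in the controls. In the wound contrasts of arrays labelled OE, 2 of 304 values passed the threshold, both for KAT1 at 6 h, given above, and 9 changed sign without passing it. Counts of probe sets moved more. With the replicate block, 0 probe sets passed at 1 h in Col-0 and 1 at 6 h in arrays labelled OE, and in the paired form the list counts were 4 between genotypes, 15 at 6 h in Col-0 and 24 for the difference at 6 h. At 1 h in Col-0 the count of 4 was 2 after quantile normalization, 10 after array medians were subtracted, 582 with only the arrays compared and 866 with the 9 Col-0 arrays, and 0 to 91 with 1 array left out. At 6 h in Col-0 the count of 2351 was 3839 with only the arrays compared (list genes 34) and 4294 with the 9 Col-0 arrays (list genes 35), and 439 to 3579 with 1 array left out (list genes 7 to 29). At 6 h in arrays labelled OE the count of 2 was 1 after either scaling, 5 without a filter, 0 with the 60th percentile and 0 with only the arrays compared. Without the 3 OE arrays lettered C the counts were 2323 between genotypes (list genes 21), 2720 at 1 h and 4777 at 6 h in arrays labelled OE, and 2330 and 6910 for the difference at 1 h and 6 h. With no term for treatment 169 probe sets and 1 list gene passed between genotypes. With 1 array left out the counts were 336 to 1440 between genotypes (list genes 1 to 16), 0 to 1590 at 1 h and 0 to 2524 at 6 h in arrays labelled OE, and 0 to 416 and 1329 to 5676 for the difference at 1 h and 6 h (list genes 16 to 37 at 6 h). Apart from the construction of an alternative with fewer arrays or probe sets, the cause was not tested.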
